A study of Mus musculus with 13 samples.

Results

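Sorted GFP-negative (GFP-) cells after 8 days of a chemical treatment (GFP- D8) were compared with GFP- cells after 4 days of it (GFP- D4) by RNA sequencing. The 2 libraries were chosen by their labels, from a series of 13 samples. The series holds 9 RNA-seq libraries, while its 4 ATAC-seq samples were not analysed here. Both populations came from mouse embryonic fibroblasts at passage 3 with a Nestin::GFP transgene, whose fluorescence follows Nestin, a filament gene of neural progenitors, and both received VCR. VCR combines valproic acid, which inhibits histone deacetylases, CHIR99021, which inhibits the kinase GSK3, and RepSox, which inhibits the type I TGF-beta receptor, and the series uses it to turn fibroblasts into neural stem cells. GFP- cells are those that did not light up the reporter on the day of the sort, so GFP- D8 cells need not descend from cells that were GFP- at D4, and the labels do not say how many embryos or cultures a library holds. The GFP-positive (GFP+) fractions of the same days, GFP+ D8 and GFP+ D4, and the unsorted libraries D0 (untreated), D1 and D2 (1 and 2 days of VCR) are given where they bear on a result.

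Each of these groups was 1 library, so every difference below is between libraries and has no replicate check. No untreated culture of D4 or D8 was analysed here, and time in VCR cannot be told apart from time in culture. The protocol renews the cocktail at intervals of 4 days, and neither the time since the last renewal nor the medium and oxygen level of these cultures is tied to a library by the labels. GFP- D8 held 23505528 estimated counts and GFP- D4 held 27344829. Mitochondrially encoded genes took 2.77% of the counts of GFP- D8 and 2.79% of those of GFP- D4. Nes, the endogenous gene behind the reporter, was at 32.2 CPM (counts scaled to the library total) in GFP- D8 and 25.9 CPM in GFP- D4, against 721 CPM in GFP+ D8 and 784 CPM in GFP+ D4, so the 2 GFP- libraries were lower than the 2 GFP+ libraries in the gene that was sorted on. In bulk RNA, fewer cells of a type and less RNA per cell cannot be told apart.

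A few pathways carry most of what is described here. Cells sense sterol in the endoplasmic reticulum: when it is scarce, the transcription factor SREBP2 is released and switches on the cholesterol synthesis enzymes and Insig1, a membrane protein that holds SREBP2 back again. In the Wnt pathway, GSK3 marks beta-catenin for destruction, and when GSK3 is inhibited beta-catenin enters the nucleus and switches on target genes, many of which, such as Axin2, Notum and the Nkd genes, damp the pathway. ATF4 is a transcription factor that is translated when amino acids are short or proteins misfold, and it switches on amino acid synthesis and transport genes and the stress genes Ddit3, Chac1 and Trib3.

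The promoters of 4 genes of the cholesterol and ATF4 lists are shown because members of these lists moved together. No promoter of a Wnt feedback gene is printed. Each runs from 250 bases before to 50 after the start in the RefSeq table for GRCm38.p6, 5' to 3' on the gene's strand, and capitals mark motif matches on either strand. The windows are chr13:119690101-119690400 (plus strand) for Hmgcs1, chr5:28071162-28071461 (plus strand) for Insig1, chr2:152344011-152344310 (minus strand) for Trib3 and chr6:7693160-7693459 (minus strand) for Asns.
Hmgcs1: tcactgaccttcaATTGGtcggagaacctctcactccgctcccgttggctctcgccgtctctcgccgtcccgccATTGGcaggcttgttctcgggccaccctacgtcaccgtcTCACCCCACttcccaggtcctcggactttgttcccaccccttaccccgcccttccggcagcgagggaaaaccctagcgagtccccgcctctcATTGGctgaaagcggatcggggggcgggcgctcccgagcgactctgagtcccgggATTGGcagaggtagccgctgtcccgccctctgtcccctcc
Insig1: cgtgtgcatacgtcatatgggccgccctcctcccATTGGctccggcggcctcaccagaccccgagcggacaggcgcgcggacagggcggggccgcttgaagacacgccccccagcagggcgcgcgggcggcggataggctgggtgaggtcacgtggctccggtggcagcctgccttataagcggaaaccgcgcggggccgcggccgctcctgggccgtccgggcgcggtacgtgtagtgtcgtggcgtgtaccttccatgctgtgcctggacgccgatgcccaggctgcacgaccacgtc
Trib3: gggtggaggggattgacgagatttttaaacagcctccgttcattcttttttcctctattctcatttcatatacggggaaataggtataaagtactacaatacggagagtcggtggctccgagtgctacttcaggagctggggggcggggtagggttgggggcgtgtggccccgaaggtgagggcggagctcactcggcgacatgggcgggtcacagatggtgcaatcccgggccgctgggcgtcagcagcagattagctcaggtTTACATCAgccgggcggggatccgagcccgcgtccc
Asns: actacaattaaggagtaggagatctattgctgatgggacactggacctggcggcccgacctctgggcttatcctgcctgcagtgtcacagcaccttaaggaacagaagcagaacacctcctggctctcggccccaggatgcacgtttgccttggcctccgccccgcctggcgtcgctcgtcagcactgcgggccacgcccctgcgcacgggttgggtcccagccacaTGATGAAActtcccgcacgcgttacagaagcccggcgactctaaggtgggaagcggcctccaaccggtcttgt
Hmgcs1 holds TCACCCCAC at positions -137 to -129 from the start, a match to the sterol regulatory element searched as TCACNCCAC, and 4 CCAAT boxes, all read on the opposite strand as ATTGG. Insig1 holds 1 CCAAT box in this window. Trib3 holds TTACATCA at positions 15 to 22 and Asns holds TGATGAAA at positions -23 to -16, both matches to the ATF4 response element searched as TGATGNAA. The motifs searched do not overlap one another.

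Over all 27025 genes with a promoter in that table, 41.1% held a CCAAT box, 1.44% the sterol regulatory element and 4.51% the ATF4 element. Of 25 listed cholesterol genes 17 had a promoter there, of which 16 (94.1%) held a CCAAT box and 1 (5.88%), Hmgcs1, the sterol element. The CCAAT box was also in 12 of 17 (70.6%) promoters of listed ATF4 genes and in 4 of 13 (30.8%) promoters of listed Wnt feedback genes. Of 20 listed ATF4 genes 17 had one, and the ATF4 element was in 7 of them (41.2%): Trib3, Asns, Chac1, Nupr1, Slc7a11, Vldlr and Aars. The TCF/LEF letters CTTTGAT, through which beta-catenin's partners bind, were in 4.29% of all promoters and in 2 of 13 (15.4%) promoters of listed Wnt feedback genes, Sp5 and Tnfrsf19. The Axin2 window, chr11:108920099-108920398 (plus strand), lies inside the span of the gene and not at its start, chr11:108917828. That window held a CCAAT box and no match to the TCF/LEF letters. These are matches of letters, not binding sites.

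Differences are of log2(CPM + 1), D8 minus D4, and calls were made at differences of at least 1 in size, that is 2-fold, among the 10790 genes with 5 CPM or more in GFP- D8 or GFP- D4. Of these, 556 (5.15%) were called, 397 (3.68%) higher and 159 (1.47%) lower in GFP- D8. These shares are the background for every count of list members below. The median over all genes tested was 0.03 and 73.3% of genes lay within 0.5 of no difference, so most genes differed little, while 44 genes rose 4-fold or more and 5 fell 4-fold or more. Between the GFP+ libraries of the same days, 308 of 11106 genes (2.77%) were called, 142 (1.28%) higher and 166 (1.49%) lower. Higher genes made up 71.4% of the calls in GFP- cells and 46.1% in GFP+ cells. With median ratio scaling the shares were 68.7% in GFP- cells and 58.8% in GFP+ cells. With quantile normalization they were 67.3% in GFP- cells and 64.0% in GFP+ cells, so the gap between the fractions depended on the scaling. Just inside the filter, Notum had 5.53 CPM in GFP- D8, and just outside it, Pim1 had 4.76 CPM in GFP- D8 and 4.75 CPM in GFP- D4. A gene that reached 5 CPM in 1 library only passed the filter through the library where it was higher, which favoured its call. Among named genes, Axin2, Notum, Hhip, Smad6, Lcn2, Klf2, Myh11 and Sox2 did so in GFP- D8 only. Trib3, Mex3d, Isg15 and Xaf1 did so in GFP- D4 only. These are examples and not a full list.

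**Figure D1:**
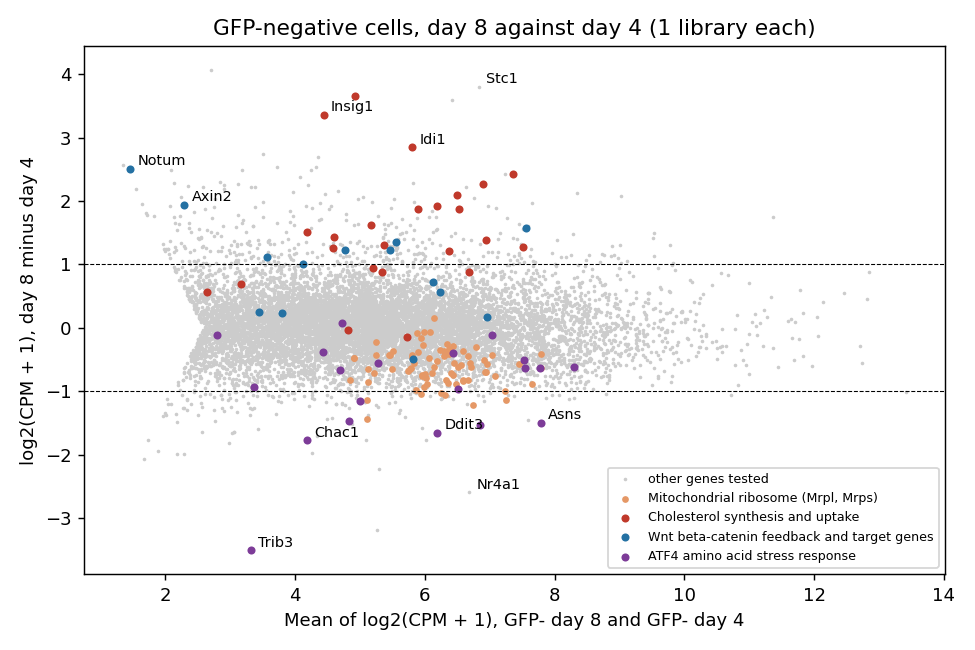
The difference in log2(CPM + 1) between GFP- D8 and GFP- D4 (vertical axis) against the mean of the 2 libraries on the same scale (horizontal axis), 1 point a gene, with the cholesterol, Wnt feedback and ATF4 lists and the mitochondrial ribosome genes coloured and dashed lines at the 2-fold calls. Of 10790 genes, 397 lie at or above 1 and 159 at or below -1, and the labelled cholesterol genes lie among the highest and ATF4 genes among the lowest.

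Cholesterol synthesis and uptake was the list that rose furthest. Of 24 members tested out of 25 listed, 17 rose, 0 fell, and 22 lay above 0, with a median of 1.41 against 0.03 over all genes tested. Summed over the list, expression was 2753 CPM in GFP- D8 and 864 CPM in GFP- D4, with 2936 CPM in D0 fibroblasts before VCR. In GFP+ cells the sums were 1538 CPM in GFP+ D8 and 1058 CPM in GFP+ D4, the median was 0.45 and 3 members rose.

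Genes of sterol sensing and transport were among those that rose. Insig1 (chr5:28071412-28078662, protein-coding, GRCm38.p6) was at 68.7 CPM in GFP- D8 and 5.78 CPM in GFP- D4, 11.9-fold higher (95% interval 10.1 to 14.1, which here and below covers counting error only). It had been high before treatment and low on the days between, since it read 69.5 CPM in D0, 4.99 in D1, 3.50 in D2, 5.78 in GFP- D4 and 68.7 in GFP- D8. Srebf2, which encodes SREBP2 itself, was at 112 CPM in GFP- D8 and 29.8 CPM in GFP- D4, 3.77-fold higher (3.48 to 4.08). Stard4, which carries cholesterol between membranes, was 3.06-fold higher (2.65 to 3.54).

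The enzymes of the early, mevalonate stretch followed. Hmgcs1, which makes HMG-CoA, was at 140 CPM in GFP- D8 and 36.4 CPM in GFP- D4, 3.85-fold higher (3.58 to 4.13). Idi1, the isomerase of the isoprenoid building blocks, reached 149 CPM in GFP- D8, against 19.8 CPM in GFP- D4, 7.49-fold (6.84 to 8.22). Acat2, Mvk, Mvd and Fdps rose by 2.33-, 2.48-, 2.82- and 2.64-fold. Pmvk, the kinase between Mvk and Mvd, was at 27.0 CPM in GFP- D8 and 27.5 CPM in GFP- D4, with no call.

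Several enzymes of the sterol branch, from squalene on, rose. Fdft1, squalene synthase, was 3.73-fold higher, and Sqle, the squalene epoxidase, was at 185 CPM in GFP- D8 and 42.7 CPM in GFP- D4, 4.34-fold higher (4.07 to 4.63). Lss, which closes the sterol ring, was 2.53-fold higher. The enzymes that strip methyl groups from lanosterol included Cyp51, at 260 CPM in GFP- D8 and 53.4 CPM in GFP- D4 (4.88-fold, 4.61 to 5.17), and Msmo1, at 380 CPM in GFP- D8 and 70.1 CPM in GFP- D4 (5.42-fold, 5.16 to 5.70). Sc5d rose 2.42-fold. Others stayed under the call: Dhcr7 differed by 0.94, Nsdhl and Hsd17b7 by 0.88 each, Tm7sf2 by 0.57 and Ebp by -0.14. In GFP+ cells Insig1 and Msmo1 were called too, with differences of 1.45 and 1.14, while Sc5d differed by 0.15, Cyp51 by 0.21 and Idi1 by 0.40.

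**Figure D2:**
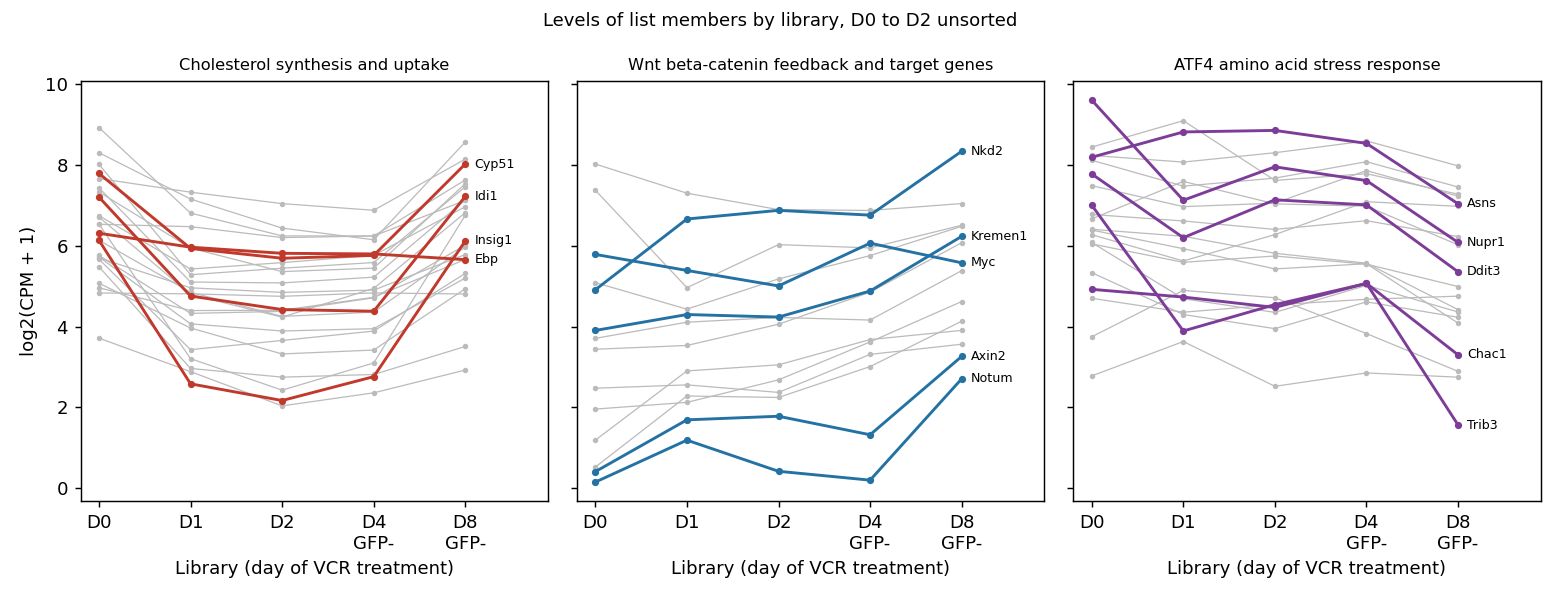
log2(CPM + 1) (vertical axis) of tested members of 3 lists in the libraries D0, D1, D2, GFP- D4 and GFP- D8 (horizontal axis), 1 line a gene, 1 panel a list, with named genes coloured. Insig1 is low in D1, D2 and GFP- D4 and stands at 68.7 CPM in GFP- D8, while Trib3 ends at 1.96 CPM.

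Fatty acid synthesis, which SREBP1 and SREBP2 share as targets, moved less. All 13 members tested of 14 listed lay above 0, with a median of 0.85, and 2 were called. Fasn, the fatty acid synthase, was at 68.7 CPM in GFP- D8 and 24.0 CPM in GFP- D4, 2.87-fold higher (2.62 to 3.14), and Scd2, a desaturase, was 2.21-fold higher. The list's median was 0.09 in GFP+ cells. Srebf1, which encodes SREBP1, differed by 0.45 in GFP- cells. Genes of sterol export and of the oxysterol receptor LXR had no call among 6 tested, where 5.15% of all genes tested were called. Abca1, the cholesterol exporter, had the lowest difference among the 6, -0.97.

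Wnt feedback genes were higher in GFP- D8, with CHIR99021 in the cocktail on both days. Of 14 members tested of 20 listed, 8 rose, 0 fell and 13 lay above 0, with a median of 1.06. Axin2 and Notum had the largest differences of the members tested. Both reached 5 CPM in GFP- D8 only, the library where they were higher, so the filter favoured counting their rise. In GFP+ cells the median was -0.09 over 13 members, with 1 called higher and 1 lower. Those 13 leave out Axin2 and Notum, which were under the filter there, so the medians of the fractions are over unlike members. Axin2 and Notum were both higher in GFP+ D8 than in GFP+ D4. Summed over the list, expression was 952 CPM in GFP- D8 and 523 CPM in GFP- D4, with 600 CPM in D0, and 1257 CPM in GFP+ D8 and 1187 CPM in GFP+ D4. A few genes carried much of these sums. In D0 Ccnd1 was at 260 CPM and Lgr5 at 165 CPM, and in GFP+ D8 Nkd2 was at 563 CPM and Ccnd1 at 498 CPM. The sums therefore do not rank the libraries as Axin2 or Notum do.

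Axin2 (chr11:108917828-108950783, protein-coding), the scaffold of the complex that destroys beta-catenin and itself a target of the pathway, was at 8.59 CPM in GFP- D8 and 1.50 CPM in GFP- D4, 5.73-fold higher (4.08 to 8.23). It read 0.33 CPM in D0, 2.23 in D1, 2.43 in D2, 1.50 in GFP- D4 and 8.59 in GFP- D8. In GFP+ cells it was at 3.12 CPM in D8 and 1.64 CPM in D4, 1.90-fold higher, under the filter and so not tested there. Notum (chr11:120653788-120661193, protein-coding), a secreted enzyme that strips the lipid from Wnt proteins, was at 5.53 CPM in GFP- D8 and 0.15 CPM in GFP- D4, which is 130 against 4 counts, 37.8-fold higher (14.4 to 141). It was 8.62-fold higher in GFP+ cells (5.38 to 14.5), at 4.95 CPM in D8 and 0.57 CPM in D4, just under the filter there.

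The other feedback genes that rose act at several levels of the pathway. Nkd2, which binds Dishevelled in the cytoplasm, was at 324 CPM in GFP- D8 and 108 CPM in GFP- D4, 3.01-fold higher (2.89 to 3.14), while GFP+ cells held 563 CPM in D8 and 599 CPM in D4. Its relative Nkd1 was at 40.8 CPM in GFP- D8 and 16.9 CPM in GFP- D4, 2.42-fold higher (2.16 to 2.71). Kremen1, a receptor for the Dkk antagonists, was at 74.4 CPM in GFP- D8 and 28.5 CPM in GFP- D4, 2.61-fold higher (2.40 to 2.84). Sfrp2, a secreted Wnt-binding protein, rose 2.39-fold, and Tnfrsf19, a receptor of the tumour necrosis factor family, 2.34-fold, a call that pseudocount 5 removed. Sfrp2 was the 1 member called higher in GFP+ cells, at 24.4 CPM in D8 and 9.37 CPM in D4. Apcdd1 stood on the line at 1.00 and was called under 4 of 9 other settings.

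Not all targets took part. Lgr5, the R-spondin receptor, differed by 0.56, Bmp4 by 0.72, Znrf3 by 0.25, Tcf7 by 0.23 and the cyclin gene Ccnd1 by 0.17. Myc was at 46.8 CPM in GFP- D8 and 66.0 CPM in GFP- D4, a difference of -0.49, and in GFP+ cells at 37.8 CPM in D8 and 103 CPM in D4, where it fell by 1.42. Among the members under the filter, Sp5 had 28 counts in GFP- D8 and 2 in GFP- D4, a ratio of 16.3 (4.11 to 141), Wif1 a ratio of 6.13 (3.19 to 13.0) and Dkk1 one of 7.85 (2.74 to 30.9). Rnf43, Lef1 and Fgf18 were also under the filter, with ratios between 1.09 and 1.99.

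Of the Wnt ligands, receptors and secreted antagonists, 19 of 27 were tested, 18 lay above 0, and 4 rose, with a median of 0.57. Among antagonists, Sfrp1, which binds Wnt proteins outside the cell, was at 1064 CPM in GFP- D8 and 251 CPM in GFP- D4, 4.24-fold higher (4.13 to 4.36), after 45.9 CPM in D0, 67.5 in D1 and 126 in D2. Among receptors, Fzd1 was at 308 CPM in GFP- D8 and 98.7 CPM in GFP- D4, 3.12-fold higher (2.98 to 3.26). Among ligands and agonists, Wnt4 was at 80.5 CPM in GFP- D8 and 26.0 CPM in GFP- D4, 3.09-fold higher (2.83 to 3.37), and Rspo2, an R-spondin that keeps Wnt receptors at the surface, was at 37.4 CPM in GFP- D8 and 10.6 CPM in GFP- D4, 3.52-fold higher (3.08 to 4.03). Wnt5a, a ligand best known for signalling without beta-catenin, was at 273 CPM in GFP- D8 and 149 CPM in GFP- D4, short of the call. The members that rose therefore included both activators and inhibitors of the pathway. Of the 4, Rspo2 was also called in GFP+ cells, at lower levels of 5.09 CPM in D8 and 1.67 CPM in D4.

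ATF4 target genes were the list that fell. All 20 members were tested, 7 fell, 0 rose and 1 lay above 0, with a median of -0.65. They fell in GFP+ cells as well, where 15 of 19 members tested fell and the median was -1.18. Summed over the list, expression was 1385 CPM in GFP- D8 and 2466 CPM in GFP- D4, and 1272 CPM in GFP+ D8 and 3035 CPM in GFP+ D4, with 3224 CPM in D0.

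The stress genes led. Trib3 (chr2:152337425-152344060, protein-coding), a pseudokinase that restrains ATF4 in turn, was at 1.96 CPM in GFP- D8 and 32.6 CPM in GFP- D4, 16.6-fold lower (12.4 to 22.9). It read 128 CPM in D0, 13.8 in D1, 22.3 in D2, 32.6 in GFP- D4 and 1.96 in GFP- D8, and GFP+ cells held 1.77 CPM in D8 and 51.8 CPM in D4. Chac1, which degrades glutathione, was at 8.85 CPM in GFP- D8 and 32.7 CPM in GFP- D4, 3.69-fold lower (3.17 to 4.31). Ddit3, which encodes the factor CHOP, was at 40.0 CPM in GFP- D8 and 128 CPM in GFP- D4, 3.21-fold lower (2.99 to 3.45). Nupr1, a stress-induced chromatin protein, was at 66.9 CPM in GFP- D8 and 195 CPM in GFP- D4, 2.92-fold lower (2.76 to 3.09).

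Among the synthesis enzymes, Asns, asparagine synthetase, was at 131 CPM in GFP- D8 and 371 CPM in GFP- D4, 2.84-fold lower (2.72 to 2.95), after 292 CPM in D0, 452 in D1 and 464 in D2. Mthfd2, of mitochondrial folate metabolism, fell 2.88-fold and Psph, the last step of serine synthesis, 2.28-fold. The 2 other serine synthesis genes stayed under the call, Psat1 with -0.96 and Phgdh with -0.51. Transporters moved less, with -0.66 for Slc7a5, -0.62 for Slc3a2 and -0.11 for Slc7a11, and Atf4 itself was at 149 CPM in GFP- D8 and 232 CPM in GFP- D4, a difference of -0.64. Of 16 chaperones of the endoplasmic reticulum, which answer largely to other branches of the misfolding response, 1 rose, 13 lay above 0, and the median was 0.37. Over all genes tested 3.68% rose, so 1 call says little about this list. The gene that rose was Pdia4, at 520 CPM in GFP- D8 and 247 CPM in GFP- D4, a call that TMM scaling removed.

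**Figure D3:**
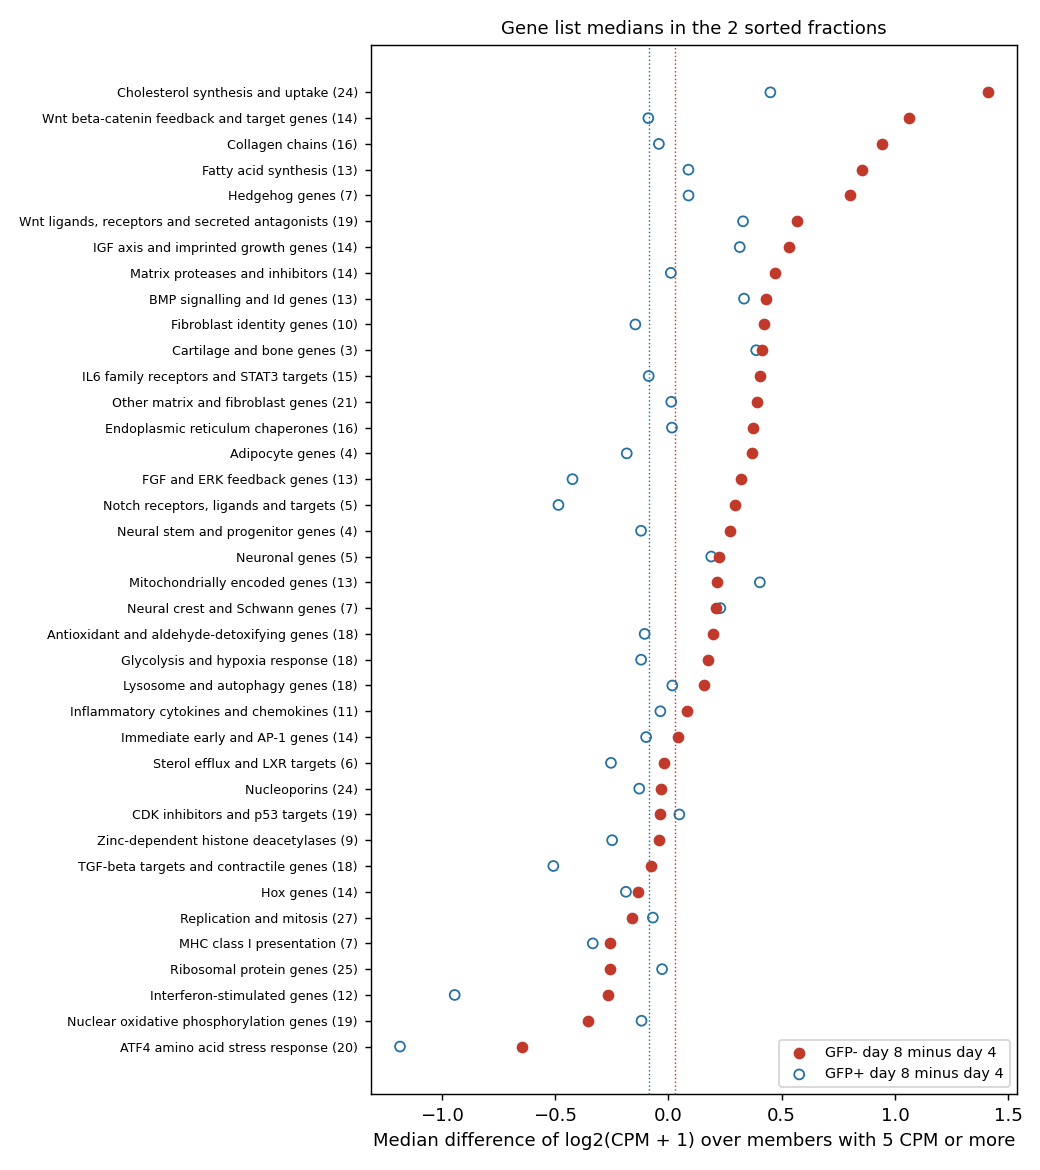
Median difference in log2(CPM + 1), D8 minus D4, of each gene list, with GFP- cells as filled and GFP+ cells as open points, lists in rows with the number of members tested in GFP- cells, and dotted lines at the medians of all genes. Cholesterol synthesis and uptake is at 1.41 in GFP- cells and 0.45 in GFP+ cells, Wnt feedback at 1.06 in GFP- cells and -0.09 in GFP+ cells, and the ATF4 list at -0.65 in GFP- cells and -1.18 in GFP+ cells. The Wnt feedback medians are over 14 members in GFP- cells and 13 in GFP+ cells, which leave out Axin2 and Notum.

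Collagen chains were higher in GFP- D8, though none of the listed chains of types I, III, V and XI was called. Of 16 tested of 18 listed (Col14a1 and Col15a1 were under the filter), 8 rose and all 16 lay above 0, with a median of 0.94, against -0.04 in GFP+ cells. The 3 chains of type VI, a beaded microfibril around cells, rose together: Col6a1 was at 520 CPM in GFP- D8 and 186 CPM in GFP- D4, Col6a2 at 281 CPM in GFP- D8 and 112 CPM in GFP- D4, and Col6a3 at 238 CPM in GFP- D8 and 83.9 CPM in GFP- D4, which is 2.79-, 2.51- and 2.84-fold. Col12a1, which decorates fibrils, was at 1379 CPM in GFP- D8 and 555 CPM in GFP- D4, and Col18a1, of basement membranes, at 156 CPM in GFP- D8 and 58.1 CPM in GFP- D4. By contrast Col1a1 was at 415 CPM in GFP- D8 and 334 CPM in GFP- D4 and Col3a1 was at 936 CPM in GFP- D8 and 890 CPM in GFP- D4. The list summed to 5724 CPM in GFP- D8 and 3492 CPM in GFP- D4, with 15916 CPM in D0.

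Around the collagens, 3 of 21 other matrix and fibroblast genes rose (S100a4, Fmod and Pdgfrb, 2.29-, 2.27- and 2.23-fold) and none fell. Over all genes tested 3.68% rose and 1.47% fell. Of 14 matrix proteases and inhibitors tested, 3 rose, among them the collagenase gene Mmp13, at 1245 CPM in GFP- D8 and 440.2 CPM in GFP- D4 (2.83-fold, 2.77 to 2.89). Mmp13 was also called higher in GFP+ cells, with a difference of 1.36. TGF-beta targets and contractile genes, which lie downstream of the receptor that RepSox inhibits, had a median near 0: 18 were tested, the median was -0.08, Myh11 rose 3.71-fold, a call that pseudocount 5 removed, and Ctgf fell, at 34.7 CPM in GFP- D8 and 106 CPM in GFP- D4 (3.05-fold lower, 2.82 to 3.30). Ctgf also fell in GFP+ cells, with a difference of -1.64. Acta2, smooth muscle actin, was at 587 CPM in GFP- D8 and 636 CPM in GFP- D4.

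Stc1 (chr14:69029289-69041401, protein-coding), the secreted glycoprotein stanniocalcin, had the largest difference among named genes, at 425 CPM in GFP- D8 and 29.7 CPM in GFP- D4, 14.3-fold higher (13.3 to 15.4), and it was also higher in GFP+ cells, at 41.2 CPM in D8 and 4.57 CPM in D4. It read 3.86 CPM in D0, 153 in D1, 88.2 in D2, 29.7 in GFP- D4 and 425 in GFP- D8, so GFP- D4 lay below D1, D2 and GFP- D8. Of the 15 genes that rose most with 20 CPM or more in either library, 5 were cholesterol genes and 8 were also called higher in GFP+ cells. The rest included Cdsn, which encodes the adhesion protein of the outer skin corneodesmosin (28.2 CPM in GFP- D8 and 3.36 CPM in GFP- D4), the secreted protein gene Ism1 (30.8 CPM in GFP- D8 and 4.46 CPM in GFP- D4), Vgf (44.2 CPM in GFP- D8 and 7.02 CPM in GFP- D4), Tnn, Fam46c and the carboxypeptidase-like gene Cpxm2 (123 CPM in GFP- D8 and 24.5 CPM in GFP- D4).

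Of 15 tested genes of a list that joins receptors of the IL6 family with targets of STAT3, the factor downstream of them, 5 rose, 0 fell and the median was 0.40, too small a gap to all genes for the list to be read as higher. Socs3, the feedback inhibitor of that pathway, was at 243 CPM in GFP- D8 and 63.3 CPM in GFP- D4, 3.84-fold higher (3.64 to 4.05), and rose in GFP+ cells too, at 371 CPM in D8 and 145 CPM in D4. The acute-phase gene Hp, haptoglobin, was at 47.1 CPM in GFP- D8 and 7.31 CPM in GFP- D4, 6.44-fold higher (5.53 to 7.52), and Steap4, a metal reductase, at 31.9 CPM in GFP- D8 and 6.47 CPM in GFP- D4, 4.94-fold higher (4.18 to 5.85). Hp was also called higher in GFP+ cells, at 7.31 CPM in D8 and 1.21 CPM in D4. Steap4 was under the filter there, at 4.40 CPM in D8 and 1.26 CPM in D4. Of 13 members of this list tested in GFP+ cells, 2 rose and 1 fell. Lcn2, an iron-binding acute-phase protein, rose 6.56-fold and Lifr, the LIF receptor, 2.16-fold. Saa3, another acute-phase gene, was at 72.4 CPM in GFP- D8 and 83.9 CPM in GFP- D4, and Stat3 at 333 CPM in GFP- D8 and 305 CPM in GFP- D4, neither called. Il6 itself fell, at 10.0 CPM in GFP- D8 and 21.5 CPM in GFP- D4 (2.15-fold lower, 1.85 to 2.51), a call that pseudocount 5 removed. Complement genes, a group set together after their values were seen, were called higher in 4 of 5 tested: among them C1s1 was at 33.9 CPM in GFP- D8 and 8.23 CPM in GFP- D4 and C1ra at 51.6 CPM in GFP- D8 and 16.1 CPM in GFP- D4. C1ra and C1s1 each have a near copy in the mouse genome, so their counts are less certain.

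Of 14 genes of the IGF axis and imprinted growth genes tested, 2 rose, where 3.68% of all genes tested rose. Both were IGF binding proteins. Igfbp3 was at 348 CPM in GFP- D8 and 63.9 CPM in GFP- D4 (5.44-fold, 5.17 to 5.74). Igfbp4 was at 678 CPM in GFP- D8 and 155 CPM in GFP- D4 (4.38-fold, 4.24 to 4.54), and it was also called higher in GFP+ cells, with a difference of 1.14. Igf2, the ligand, was at 902 CPM in GFP- D8 and 689.9 CPM in GFP- D4, short of the call. Of 7 hedgehog genes tested 2 rose and the median was 0.80, counting Hhip, which reached 5 CPM in GFP- D8 only. Hhip, a target and decoy receptor of the pathway, was at 18.0 CPM in GFP- D8 and 2.96 CPM in GFP- D4, 6.09-fold higher (4.79 to 7.82), and Gas1, a co-receptor, rose 2.19-fold. Gli1, the usual readout of the pathway, was under the filter with 0.21 CPM in GFP- D8 and 0.37 CPM in GFP- D4. Of 13 genes of BMP signalling 5 rose: the ligand gene Bmp2 (not with pseudocount 5), the receptor gene Bmpr1b, the inhibitory Smad6 (3.66-fold, 2.95 to 4.56), and the antagonists Fst and Grem1. The direct target Id1 was at 244 CPM in GFP- D8 and 236 CPM in GFP- D4. In the aldehyde-detoxifying list, Aldh1a1 rose 3.43-fold and its close copy Aldh1a7 2.22-fold, and reads of the pair may be shared.

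Among genes that fell, 10 of the 15 with the lowest differences also fell in GFP+ cells. Nr4a1, an orphan nuclear receptor and immediate early gene, was at 40.9 CPM in GFP- D8 and 251 CPM in GFP- D4, 6.15-fold lower (5.75 to 6.59). Of the 14 immediate early and AP-1 genes tested it was the 1 that fell, while 3 rose and the median was 0.04. Those that rose were Fos, at 742 CPM in GFP- D8 and 367 CPM in GFP- D4, Fosb, at 18.0 CPM in GFP- D8 and 8.23 CPM in GFP- D4, and Klf2, at 10.6 CPM in GFP- D8 and 3.15 CPM in GFP- D4. The calls of Fos and Fosb held in 6 of 9 other settings each, and pseudocount 5 removed that of Klf2. In GFP+ cells Fos and Fosb were called higher too, with differences of 1.19 and 1.05, and Nr4a1 lower, with -1.60. Errfi1, a feedback inhibitor of the EGF receptor, was at 115 CPM in GFP- D8 and 316 CPM in GFP- D4. It also fell in GFP+ cells, with a difference of -1.58. Prpf19, a splicing factor, was at 17.0 CPM in GFP- D8 and 83.5 CPM in GFP- D4, Max, the partner of Myc, at 8.59 CPM in GFP- D8 and 36.9 CPM in GFP- D4, and Raly, an RNA-binding protein, at 17.5 CPM in GFP- D8 and 62.3 CPM in GFP- D4. These 3 were not called in GFP+ cells, where Prpf19 had 102 CPM in D8 and 98.05 CPM in D4. On D1 and D2 all 3 lay below GFP- D4: Prpf19 read 29.0 CPM in D1 and 32.6 in D2, Max 6.95 CPM in D1 and 7.97 in D2, and Raly 13.1 CPM in D1 and 18.9 in D2. In D0 Prpf19 was at 48.9 CPM, Max at 42.3 and Raly at 60.5. Of 12 interferon-stimulated genes tested, 4 fell (Isg15, Ifi35, Xaf1 and Usp18) and 0 rose, with a median of -0.26, where 1.47% of all genes tested fell. Pseudocount 5 removed the calls of Isg15, Xaf1 and Usp18, and Ifi35 was at 30.0 CPM in GFP- D8 and 69.1 CPM in GFP- D4. In GFP+ cells 5 of 13 members tested fell and 0 rose, with a median of -0.94.

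Several lists held no call. None of 27 replication and mitosis genes (median -0.16), 19 CDK inhibitors and p53 targets (-0.04) or 24 nucleoporins (-0.03) reached 2-fold. Over all genes tested 5.15% were called. At that share lists of these sizes would hold few calls, so the lack of calls says little about them. Among the genes the series names, Nup210 was at 0.13 CPM in GFP- D8 and 0.15 CPM in GFP- D4, which is 3 and 4 counts, with 0.83 CPM in GFP+ D8 and 1.41 CPM in GFP+ D4. Fgf5 was at 10.6 CPM in GFP- D8 and 8.61 CPM in GFP- D4, and Lif at 3.40 CPM in GFP- D8 and 3.44 CPM in GFP- D4. Sox2, a neural stem cell factor, was at 7.27 CPM in GFP- D8 and 2.52 CPM in GFP- D4, 2.88-fold higher (2.17 to 3.87), a call that pseudocount 5 removed, while GFP+ cells held 130 CPM in D8 and 84.0 CPM in D4.

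Markers of the cells a GFP- gate could hold were set beside these results. Fibroblast identity genes summed to 8249 CPM in GFP- D8 and 6471 CPM in GFP- D4, with 1143 CPM in GFP+ D8 and 1447 CPM in GFP+ D4, and 9 of 10 lay above 0 with 1 called. Neural crest and Schwann genes summed to 183 CPM in GFP- D8 and 154 CPM in GFP- D4, with 5166 CPM in GFP+ D8 and 4463 CPM in GFP+ D4. Neural stem and progenitor genes summed to 135 CPM in GFP- D8 and 124 CPM in GFP- D4, with Hes5, Olig2 and Sox3 at 0 in both. Macrophage genes summed to 24.5 CPM in GFP- D8 and 32.2 CPM in GFP- D4, endothelial genes to 10.1 CPM in GFP- D8 and 7.65 CPM in GFP- D4, adipocyte genes to 279 CPM in GFP- D8 and 263 CPM in GFP- D4, keratinocyte genes to 50.7 CPM in GFP- D8 and 62.6 CPM in GFP- D4, with Krt5 at 0 in both, and skeletal muscle genes to 21.4 CPM in GFP- D8 and 23.1 CPM in GFP- D4, with Myf5, Myod1 and Pax7 at 0 in both. Cartilage and bone genes summed to 5225 CPM in GFP- D8 and 3924 CPM in GFP- D4, with 1175 CPM in GFP+ D8 and 893 CPM in GFP+ D4. Spp1, osteopontin, held 5174 CPM of that in GFP- D8 and 3889.7 CPM in GFP- D4, Bglap was at 0 in both, and of 12 listed genes 3 were tested and 0 called. Their part in the differences above was not tested.

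The differences between GFP- D8 and GFP- D4 also moved with the length of the gene on the genome. Over 10429 tested genes with a span in the reference, the median difference was -0.17, -0.03, 0.01, 0.08 and 0.20 in 5 equal groups of genes from shortest to longest, and 3.50%, 1.53%, 1.39%, 0.384% and 0.336% of genes in them fell. In GFP+ cells the medians of the same groups lay between -0.09 and -0.08. Most members of 2 families lay below 0, and most of them were shorter than the median span of all tested genes, 71 of 78 and 39 of 46: of 78 tested genes of the mitochondrial ribosome (Mrpl and Mrps) 77 lay below 0 and 7 fell, with a median of -0.61, and of 46 tested Nduf genes of respiratory complex I 45 lay below 0 and 3 fell, with a median of -0.66. The medians of those families in GFP+ cells were -0.23 and -0.15. The pattern was not limited to these families: of 38 tested proteasome (Psm) genes 35 lay below 0 and 0 fell. Their median was -0.51 in GFP- cells and -0.17 in GFP+ cells. All of these families were picked after their values were seen. Split at the median span of 24421 bases, cholesterol genes had a median of 1.43 over 17 short members and 1.30 over 7 long ones, against -0.08 and 0.12 over all short and long genes. The Wnt feedback list had 0.72 over 5 short and 1.12 over 9 long members, 14 of 16 collagen genes were long, and the 7 ATF4 genes that fell were all short, 7 of 13, against 0 of 7 long ones. The part of gene length in these results was not tested further.

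**Figure D4:**
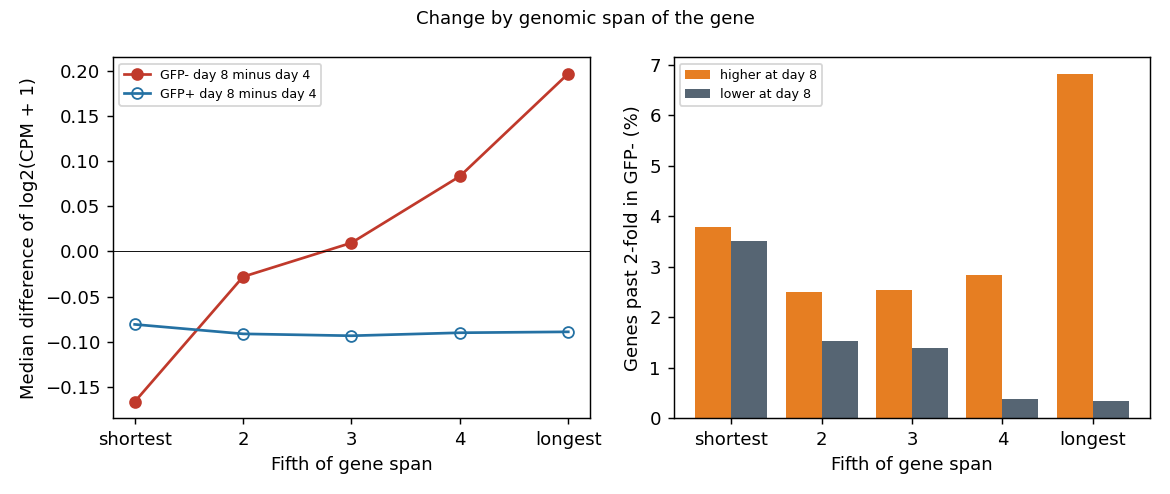
Left, the median difference in log2(CPM + 1), D8 minus D4, in 5 groups of genes by genome span, for GFP- cells and GFP+ cells. Right, bars from 0 of the percent of genes called higher and lower in GFP- cells, where the longest group holds 6.81% higher and 0.336% lower and the shortest 3.79% higher and 3.50% lower.

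The GFP+ pair of libraries, which shares none with the GFP- pair, moved in part alike. Across 10262 genes tested in both fractions, Pearson's r of the differences was 0.474 and Spearman's rho 0.435, as a description over genes that share treatment, days and, possibly, culture. The fractions had 45 genes called higher in both, 11.3% of the 397 in GFP- cells and 31.7% of the 142 in GFP+ cells, and 28 called lower in both, 17.6% of the 159 and 16.9% of the 166. Genes called in opposite directions were Mex3d, which encodes an RNA-binding protein, and the predicted gene Gm6741.

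**Figure D5:**
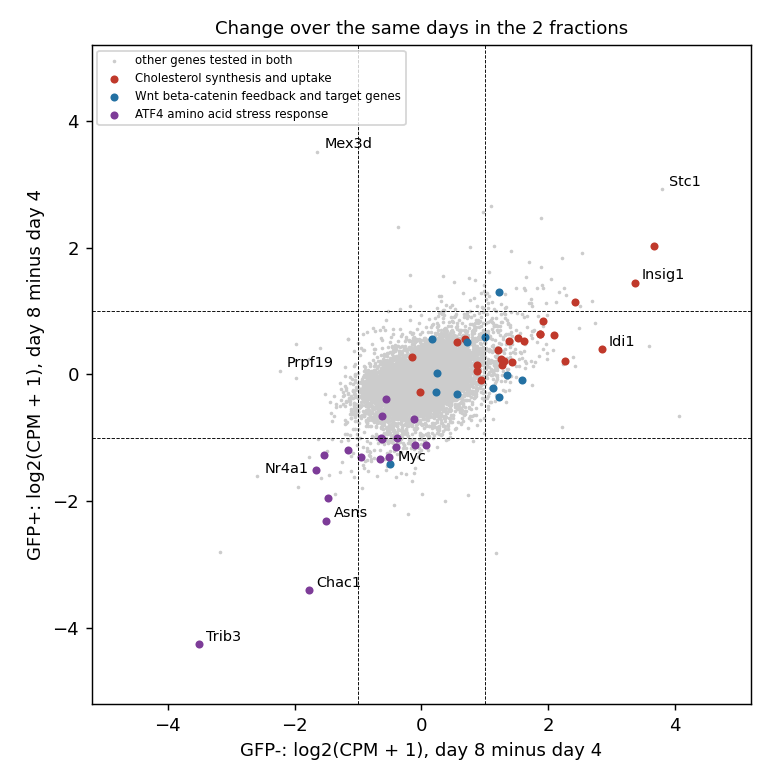
The difference in log2(CPM + 1), D8 minus D4, in GFP- cells (horizontal axis) against the same in GFP+ cells (vertical axis), 1 point a gene for 10262 genes tested in both, with dashed lines at the 2-fold calls. Insig1 and Idi1 lie to the right with smaller vertical values, Trib3 and Chac1 lie low on both axes, and Mex3d lies at -1.64 in GFP- cells and 3.51 in GFP+ cells.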

How the data were processed

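RNA was measured in 9 libraries, of which the sorted D8 and D4 libraries, 1 per group, carry the comparisons. The authors deposited a table of estimated counts per gene symbol for 30332 symbols, with fractional values, although it is called TPM. The submitters' processing notes list bedtools (2.25.0), MACS2 (2.1.1.20160309) and kallisto (0.43.1), then deepTools (2.4.2) and Bowtie2 (2.2.9) with SAMtools (1.3.1), and they name mm10 and GRCm38 as builds. Annotation and transcript summing: not given in the sources used here. Library totals ran from 20104940 to 36751356, and 3 counts are 0.128 CPM in GFP- D8 and 0.110 CPM in GFP- D4.

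CPM were taken from column totals, and genes with 5 CPM or more in either library were called at a log2(CPM + 1) difference of 1, a scale that understates low genes and does not correct for length. Ratios printed as folds are of CPM, with exact conditional binomial 95% intervals on rounded counts that cover counting error only. No p-values or SDs are given, since a group is 1 library. A list was read as higher or lower when its median lay 0.5 or more from the median of all genes on that side, over 3 or more tested members, and 42 lists were read, of which 7 were higher and 1 lower.

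The members, lists and rules were chosen with earlier results of these data known. Named genes were the markers of the comparison and genes of the series' title, every member of the cholesterol and Wnt feedback lists and up to 4 called members of the others, the 15 highest and 15 lowest genes among those reaching 20 CPM, without predicted genes, and up to 6 genes called in opposite directions in the fractions. Other list members given in the text were chosen after their values were seen. A few genes that the rule names are left out of the text, though they stay in the counts. Gene spans and promoters came from RefSeq tables for GRCm38.p6, where 26237 symbols matched. The alternatives changed the pseudocount to 0.1 or 5, the filter to none, 1 or 20 CPM, and the scaling to median ratio, TMM, quantile or totals that leave out the 20 most abundant genes and those of mitochondria and ribosomal proteins. Python 3.11.15, numpy 2.4.6, pandas 2.3.3, scipy 1.17.1, matplotlib 3.10.9, R 4.3.3 and edgeR 4.0.16 (TMM factors only) were used. The code for the calls was run on simulated counts with planted changes and counting error only. The simulation left out variation between cultures, so it cannot show whether the calls would repeat.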

Additional observations from a re-analysis of the deposited data

Results flagged for a closer look

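Mex3d, which encodes an RNA-binding protein, moved in opposite directions in the fractions. Its log2(CPM + 1) at D8 minus D4 was -1.64 in GFP- cells, with 3.72 CPM in GFP- D8 and 13.7 CPM in GFP- D4. The same difference was 3.51 in GFP+ cells, with 22.8 CPM in GFP+ D8 and 1.08 CPM in GFP+ D4. With 1 library in each group the difference between the fractions was not tested.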

How the results depend on the processing

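No paired analysis was possible because each group has 1 library and the labels carry no replicate numbers, and no replicate could be left out. With pseudocount 5, 247 genes were called higher and 70 lower in GFP- cells, and 86 higher and 65 lower in GFP+ cells. With a filter of 20 CPM the counts were 261 and 95 in GFP- cells and 87 and 77 in GFP+ cells. Genes lower in GFP+ cells numbered 110 with median ratio scaling and 91 with quantile normalization. The stricter filter tests fewer genes and a higher pseudocount shrinks low genes by construction, and the cause of the others was not tested. TMM scaling gave 338 higher and 211 lower in GFP- cells, so 61.6% of calls were higher. No list read as higher or lower and no named gene past 2-fold changed direction, and the median over all genes of GFP- cells lay between -0.04 and 0.04. Of 96 named genes past 2-fold, 79 stayed past it in all 9 other settings and 17 were lost in at least 1. The list calls lost were those of Wnt ligands, receptors and antagonists and of the IGF axis and imprinted genes, each with pseudocount 5, with no filter and with a filter of 1 CPM. Depth limits ratios that rest on few counts in 1 library, such as that of Notum, with 4 counts in GFP- D4, and having 1 library a group limits all of them.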
